A study of Mus musculus with 9 samples.

Results

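The genes described here are 8 genes of bone morphogenetic protein (BMP) signalling and 2 genes of iron handling in mouse liver: the BMP-SMAD target genes Id1, Id2, Id3, Id4, Smad6, Smad7 and Atoh8, the ligand Bmp6, the iron hormone gene Hamp and the transferrin gene Trf. All 10 were found among the 27179 genes of the deposited count table, 9 were among the 16860 genes tested, and Trf was 1 of the 10 most highly expressed genes, which were set aside from the main fit. They were chosen by name with earlier results of this same comparison known, so their differences between the genotypes are given as a description, without p-values.

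RNA was sequenced from fixed, frozen liver sections of mice kept on HFD, a Western-type high-fat diet, from 8 weeks of age for 12 weeks. The paper's description of these sections gives no sex. It describes the 12-week livers of female mice and reports a similar liver difference in males. The control group was Apoe-/- (labelled WT, 5 libraries) and the other group was Mif-2-/- Apoe-/- (labelled DKO, 4 libraries), so both groups lacked apolipoprotein E and both received the diet. The Mif-2 deletion is global, not limited to the liver, and the mice came from crosses of Mif-2+/- with Apoe-/- animals. Each library combined the lysates of 3 to 4 sections, and since the labels do not say whether libraries came from separate mice, p-values measure only the spread between these libraries.

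BMPs are secreted ligands that bind pairs of type I and type II receptors. The receptors phosphorylate SMAD1, SMAD5 and SMAD9, which join SMAD4 and enter the nucleus. Id genes are among the most direct targets of this signal. Their products are helix-loop-helix proteins without a DNA-binding region, which bind E proteins and keep them off DNA. SMAD6 and SMAD7 are inhibitory SMADs that the signal also induces. In liver, BMP6 and BMP2 come mainly from sinusoidal endothelial cells and act on hepatocytes, where the co-receptor hemojuvelin (Hjv) strengthens the signal and the protease TMPRSS6 weakens it. A main output there is hepcidin, the peptide encoded by Hamp, which binds the iron exporter ferroportin and lowers iron release into plasma. Inflammatory IL-6 acts on the same gene through STAT3. Transferrin, the product of Trf, is the plasma carrier of iron and is made by hepatocytes. Mice carry a close copy of Hamp, named Hamp2.

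Promoter sequences from RefSeq (GRCm38.p6) were matched for 7 of the 10 genes (Atoh8, Bmp6, Hamp, Id2, Id3, Id4 and Smad6) and for Hamp2. The stretches upstream of the hepcidin genes are shown because these neighbouring genes differed in how their counts compared between the genotypes, and those of Smad6 and Id2 because each holds an element known to be bound by SMADs. Capitals mark GGCGCC (a SMAD1/5/8 element), GTCTAGAC (a SMAD4 palindrome) and TTCTTGGAA (a STAT3 element), all searched on both strands. All 4 are on the minus strand and written 5′ to 3′, Hamp from chr7:30944030-30944179, Hamp2 from chr7:30924179-30924328, Smad6 from chr9:64022056-64022119 and Id2 from chr12:25096293-25096342.

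Hamp: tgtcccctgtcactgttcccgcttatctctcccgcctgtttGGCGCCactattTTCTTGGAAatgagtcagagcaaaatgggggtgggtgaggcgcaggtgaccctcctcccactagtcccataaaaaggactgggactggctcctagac
Hamp2: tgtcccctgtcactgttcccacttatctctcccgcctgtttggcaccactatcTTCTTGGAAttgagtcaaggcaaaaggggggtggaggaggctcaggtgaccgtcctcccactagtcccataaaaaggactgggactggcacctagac
Smad6: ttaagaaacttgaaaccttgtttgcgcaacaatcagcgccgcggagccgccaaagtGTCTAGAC
Id2: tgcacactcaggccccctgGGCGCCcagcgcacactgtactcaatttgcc

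Hamp and Hamp2 were aligned near their RefSeq starts with a shift of 3 bases, so the printed Hamp2 stretch runs past its start. Over 250 aligned bases they were identical at 230 positions (92.0%), and in the 150 bases printed at 138. GGCGCC stood 109 bases upstream of the Hamp start. Counted from 1 at the 5′ end of that element, with the Hamp base first, Hamp2 carried the substitution G4A and so did not hold the element. TTCTTGGAA was present in both, 97 bases upstream of the Hamp start and 94 bases upstream of the Hamp2 start, and did not overlap the GGCGCC of Hamp. GGCGCC was also found 231 bases upstream of Id2 and 148 bases upstream of Id4. GTCTAGAC began 4 bases upstream of the Smad6 start and ran across it. Of the 32851 promoters in the table, 9.67% held GGCGCC, 0.170% held GTCTAGAC and 0.365% held TTCTTGGAA. These matches describe letters in a window, not bound sites.

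Total counts were between 2886407 and 10764182 in the Apoe-/- libraries and between 2318148 and 5467917 in the Mif-2-/- Apoe-/- libraries, a difference in mean log2 total of -0.76 (two-sided exact permutation test, p = 0.143). Values below are CPM, the read count of a gene scaled to the library size after TMM normalization, with the 10 most abundant genes left out of the library size, and a floor of 3 counts came to 0.279 to 1.29 CPM of the unscaled libraries. Libraries differed widely within a genotype, with a biological coefficient of variation of 0.909 over all genes. Apoe-/- library 5 and Mif-2-/- Apoe-/- library 3 stood apart from the rest, with median Spearman correlations with the other libraries of 0.730 and 0.644, and were kept. Ddt, the gene that encodes MIF-2, was between 233 and 972 CPM in the Apoe-/- libraries and between 2.51 and 5.49 CPM in the Mif-2-/- Apoe-/- libraries, as the labels state (edgeR quasi-likelihood test, adjusted p = 2.2e-05). Fold changes are Mif-2-/- Apoe-/- over Apoe-/-, so a negative value is a lower level in Mif-2-/- Apoe-/- liver.

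Among the 10 genes, the Id genes of higher expression and Trf were lower in the Mif-2-/- Apoe-/- libraries, Hamp was not separated between the genotypes, and Smad6, Smad7, Bmp6 and Id4 were low and scattered. Id3 had 3.56-fold less RNA in Mif-2-/- Apoe-/- liver and was the 1 gene of the 9 tested whose CPM ranges did not overlap, where 4.26% of all genes tested had such ranges. Trf was 2.74-fold lower. The plot of the 10 genes by library shows these 3 patterns.

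**Figure D1:**
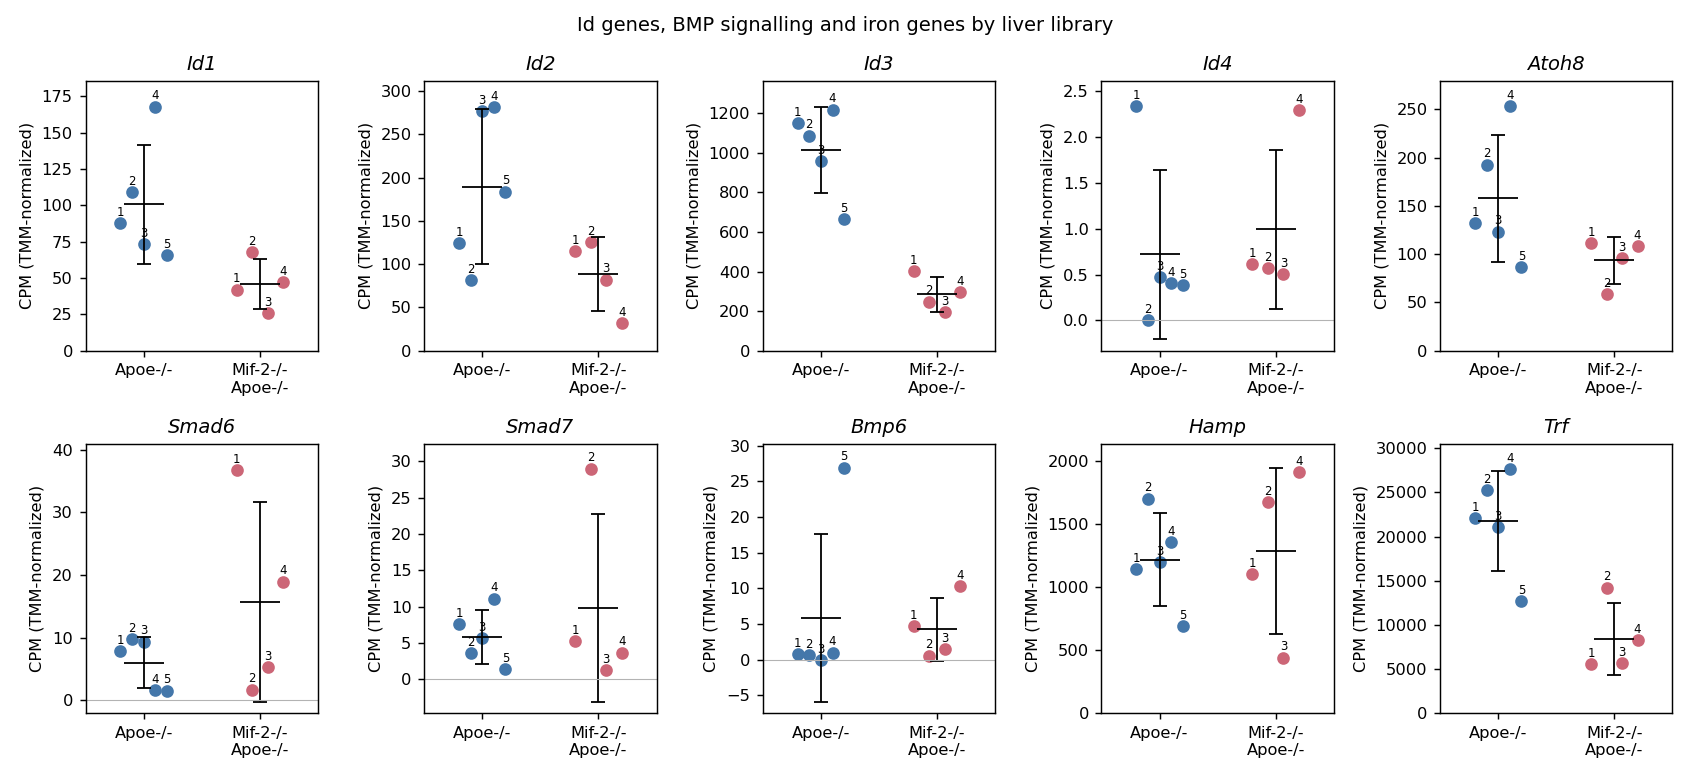
CPM (TMM-normalized, linear y axes) of the 10 genes in each of the 5 Apoe-/- (blue) and 4 Mif-2-/- Apoe-/- (red) libraries, with the replicate number above each point and the mean ± SD in black. For Id3 all 4 red points lie between 195 and 402 CPM and all 5 blue points between 663 and 1218, while for Hamp the red points span 442 to 1918 CPM around the blue ones.

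Id3 encodes one of the Id proteins and lies at chr4:136143497-136145755 on the plus strand (GRCm38, GENCODE M21). It was measured at 1149, 1087, 958, 1218 and 663 CPM in Apoe-/- libraries 1 to 5 and at 402, 248, 195 and 297 CPM in Mif-2-/- Apoe-/- libraries 1 to 4. The highest Mif-2-/- Apoe-/- library thus lay below the lowest Apoe-/- library, which was number 5. The means were 1015 ± 219 (SD, n = 5) and 285 ± 88.0 CPM (SD, n = 4), which gave -1.83 on the log2 scale (SE 0.32). Across all genes tested the median log2 fold change was 0.17, so relative to that median the lower values of these genes are slightly further from 0 than printed. With each library left out in turn the log2 fold change of Id3 was between -2.04 and -1.69.

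Id1 is the Id gene most often used as a readout of BMP signalling in liver, and lies at chr2:152736251-152737410 on the plus strand. Apoe-/- libraries 1 to 5 held 87.5, 109, 73.2, 168 and 66.0 CPM of Id1, and Mif-2-/- Apoe-/- libraries 1 to 4 held 42.1, 67.6, 26.0 and 47.3 CPM. The ranges overlapped by 1 library on each side, Apoe-/- library 5 lying just below Mif-2-/- Apoe-/- library 2. Mean Id1 was 101 ± 41.0 (SD, n = 5) in the first group and 45.7 ± 17.2 CPM (SD, n = 4), which gave -1.15 on the log2 scale (SE 0.39), or -1.32 relative to the median of all genes.

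Id2 encodes a related protein that is also expressed in lymphoid cells. It stood at 125, 81.1, 277, 281 and 184 CPM in Apoe-/- libraries 1 to 5 and at 115, 126, 82.1 and 31.5 CPM in Mif-2-/- Apoe-/- libraries 1 to 4. Apoe-/- libraries 1 and 2 lay within the range of the Mif-2-/- Apoe-/- libraries, so the groups overlapped. The means were 189 ± 89.4 (SD, n = 5) and 88.6 ± 42.3 CPM (SD, n = 4), with a log2 fold change of -1.10 (SE 0.45).

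Id4, which in other tissues is best known from the nervous system, was at the edge of detection. Its raw counts were 17, 0, 1, 2 and 2 in Apoe-/- libraries 1 to 5 and 3, 1, 2 and 10 in Mif-2-/- Apoe-/- libraries 1 to 4. In 7 of the 9 libraries the count was at or below the floor of 3, and a difference between the genotypes was not detectable at this depth (log2 fold change 0.45, SE 1.23).

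The CPM of the 4 Id genes added up to a mean of 1306 ± 269 in Apoe-/- liver (SD, n = 5) and of 421 ± 108 in Mif-2-/- Apoe-/- liver (SD, n = 4). The sums were between 914 and 1668 CPM in the first group and between 304 and 560 CPM in the second, without overlap. Id3 made up 77.6 ± 6.43% of the Id counts in Apoe-/- libraries (SD, n = 5) and 67.7 ± 9.66% in Mif-2-/- Apoe-/- libraries (SD, n = 4), and these shares overlapped. The ratio of Id2 to Id1 counts within a library was 2.08 ± 1.20 (SD, n = 5) and 2.11 ± 1.10 (SD, n = 4).

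Atoh8 encodes a basic helix-loop-helix factor that BMP signalling induces in hepatocytes and that acts on the Hamp promoter. It was found at 132, 193, 123, 254 and 86.9 CPM in Apoe-/- libraries 1 to 5, and at 112, 58.5, 96.2 and 108 CPM in Mif-2-/- Apoe-/- libraries 1 to 4. Its direction was that of Id1, Id2 and Id3, but Apoe-/- library 5 lay below 3 of the 4 Mif-2-/- Apoe-/- libraries. The means were 158 ± 65.7 (SD, n = 5) and 93.7 ± 24.4 CPM (SD, n = 4), which gave -0.75 on the log2 scale (SE 0.36).

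The inhibitory SMAD genes were far below Id3 in level and varied with single libraries. Smad6 was at 7.82, 9.79, 9.39, 1.61 and 1.55 CPM in Apoe-/- libraries 1 to 5 and at 36.8, 1.70, 5.29 and 19.0 CPM in Mif-2-/- Apoe-/- libraries 1 to 4. Its higher mean in the second group came from libraries 1 and 4, and the other two lay within the Apoe-/- range (log2 fold change 1.39, SE 0.92). Smad7 was at 7.55, 3.62, 5.63, 11.1 and 1.36 CPM in Apoe-/- libraries 1 to 5 and at 5.29, 29.0, 1.26 and 3.66 CPM in Mif-2-/- Apoe-/- libraries 1 to 4. Only Mif-2-/- Apoe-/- library 2 exceeded the Apoe-/- range, and without it the log2 fold change of Smad7 turned from 0.72 (SE 0.97) to -0.89. For Smad6 and Smad7 the direction opposite to that of Id1 to Id3 was therefore not larger than the spread between libraries.

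Bmp6, the main BMP ligand of iron sensing in liver, was close to the floor in most libraries. Its CPM were 0.823, 0.670, 0, 1.01 and 26.9 in Apoe-/- libraries 1 to 5 and 4.68, 0.568, 1.51 and 10.3 in Mif-2-/- Apoe-/- libraries 1 to 4. Apoe-/- library 5 alone held 139 of the counts, while the other Apoe-/- libraries held 0 to 6. The log2 fold change was -0.45 (SE 1.40) with that library and 2.67 without it, so the data give no direction for Bmp6. In bulk tissue, fewer endothelial cells and less Bmp6 RNA per cell cannot be told apart. The summed CPM of 12 sinusoidal endothelial markers was between 534 and 734 in Apoe-/- libraries and between 242 and 965 in Mif-2-/- Apoe-/- libraries, and none of the 12 was at 0 in any library.

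Hamp, the hepcidin gene, lies at chr7:30942368-30944032 on the minus strand and was among the abundant liver transcripts. It was measured at 1143, 1704, 1203, 1362 and 692 CPM in Apoe-/- libraries 1 to 5 and at 1104, 1680, 442 and 1918 CPM in Mif-2-/- Apoe-/- libraries 1 to 4. Libraries 5 and 3 of the respective groups, the pair that stood apart, were the lowest in each. The means were 1221 ± 368 (SD, n = 5) and 1286 ± 658 CPM (SD, n = 4). The log2 fold change was 0.08 (SE 0.40), and it was below 0 in 8 of the alternative settings, within -0.24 to 0.36. An approximate interval of 2 SE on either side of that value spans more than a 1.5-fold difference in each direction, so a moderate change of Hamp was not detectable in these libraries.

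Hamp2, the neighbouring copy at chr7:30922372-30924681 on the minus strand, was at 513, 709, 410, 503 and 215 CPM in Apoe-/- libraries 1 to 5. It was at 774, 1414, 313 and 1766 CPM in Mif-2-/- Apoe-/- libraries 1 to 4. In 3 of these 4 it exceeded every Apoe-/- library, and library 3 did not. The means were 470 ± 179 (SD, n = 5) and 1067 ± 649 CPM (SD, n = 4), with a log2 fold change of 1.18 (SE 0.45) that did not pass the test over all genes (edgeR quasi-likelihood test, adjusted p = 0.239; DESeq2, adjusted p = 0.109).

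Since both hepcidin genes were counted in the same library, their ratio does not depend on scaling. Hamp2 counts divided by Hamp counts were 0.449, 0.416, 0.341, 0.369 and 0.311 in Apoe-/- libraries 1 to 5 and 0.701, 0.842, 0.708 and 0.921 in Mif-2-/- Apoe-/- libraries 1 to 4. Every Mif-2-/- Apoe-/- library lay above every Apoe-/- library, with means of 0.793 ± 0.107 (SD, n = 4) and 0.377 ± 0.056 (SD, n = 5), a 2.10-fold difference. Mif-2-/- Apoe-/- library 3, the lowest of its group for both genes, had a ratio like that of the others in that group. The ratio was computed after the values were seen and is a description. The 2 genes are near-identical copies, so how the authors' counting shared reads between them could set part of either count, and this was not tested. Together they amounted to 1691 ± 542 CPM (SD, n = 5) and 2353 ± 1303 CPM (SD, n = 4), which overlapped.

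**Figure D2:**
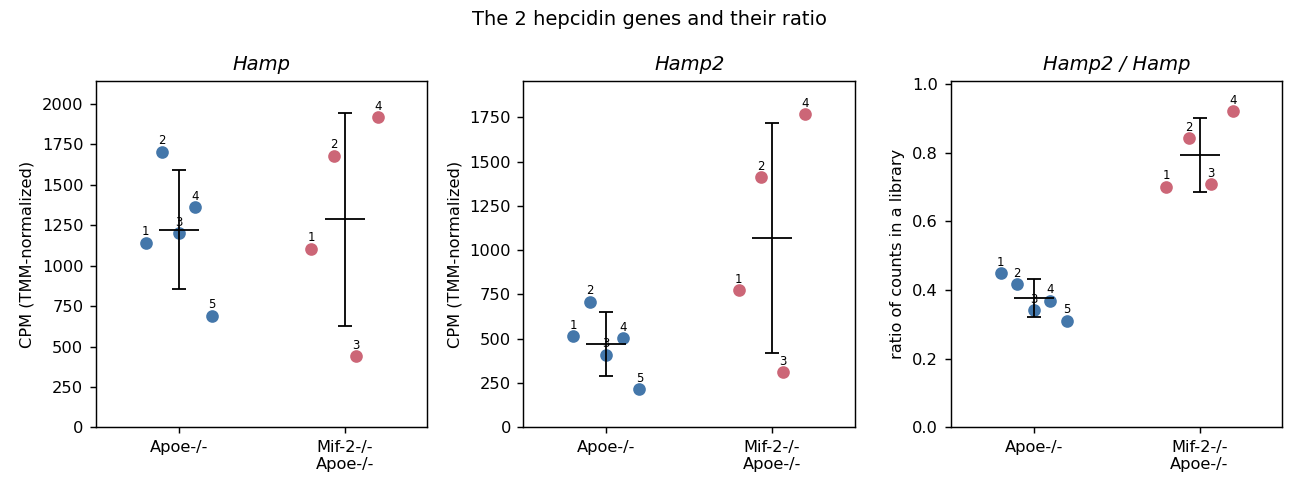
CPM of Hamp (left) and Hamp2 (middle) and the ratio of Hamp2 to Hamp counts (right) in each Apoe-/- (blue) and Mif-2-/- Apoe-/- (red) library, numbered by replicate, with the mean ± SD in black and linear axes from 0. Hamp overlaps fully between the genotypes, whereas the ratio is 0.311 to 0.449 in blue and 0.701 to 0.921 in red.

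Trf, at chr9:103204001-103230444 on the minus strand, was the most abundant of the 10 genes. It was measured at 22053, 25303, 21093, 27617 and 12714 CPM in Apoe-/- libraries 1 to 5 and at 5571, 14228, 5702 and 8268 CPM in Mif-2-/- Apoe-/- libraries 1 to 4. Apoe-/- library 5 was the lowest of its group and Mif-2-/- Apoe-/- library 2 the highest of the other, and these 2 libraries crossed. The means were 21756 ± 5684 (SD, n = 5) and 8442 ± 4052 CPM (SD, n = 4), which gave -1.46 on the log2 scale (SE 0.42) in a fit that kept the 10 most abundant genes. As a share of all counts Trf was 1.26% to 1.75% in Apoe-/- libraries and 0.501% to 1.08% in Mif-2-/- Apoe-/- libraries, without overlap.

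The summed CPM of 12 hepatocyte markers was 148007, 154745, 166577, 208904 and 67904 in Apoe-/- libraries 1 to 5 and 89147, 202992, 67354 and 95883 in Mif-2-/- Apoe-/- libraries 1 to 4, and none of the 12 was at 0 in any library. Apoe-/- library 4 was the highest and library 5 the lowest of its group for this sum, for Trf and for Id3. Among the Mif-2-/- Apoe-/- libraries, library 2 was the highest for the sum and for Trf, and library 3 was the lowest for the sum and for Id3. Other extremes of that group did not match: Id3 was highest in library 1 (402 CPM) and only 248 CPM in library 2. The lowest Trf was in library 1 (5571 CPM). Alb, Apoa1 and Ttr made up most of the hepatocyte sum (61658, 55920 and 17001 CPM in Apoe-/- library 1). Of the 9 hepatocyte markers tested 2 were higher and 7 lower in Mif-2-/- Apoe-/- liver. Stab1 and Stab2 made up most of the endothelial sum, and Ecm1 was the largest part of the stellate sum. The part of hepatocyte content in the values of Trf and Id3 was not tested. Summed Kupffer cell and macrophage markers were between 1176 and 2671 CPM in Apoe-/- and between 1282 and 1885 CPM in Mif-2-/- Apoe-/- libraries, and stellate cell markers between 642 and 1272 and between 896 and 1073 CPM. Of the 12 stellate markers Rgs5 was at 0 in 5 libraries, and of the cholangiocyte markers Cftr was at 0 in 5. Summed cholangiocyte markers were 102.8 to 325 CPM in Apoe-/- and 69.0 to 311 CPM in Mif-2-/- Apoe-/- libraries, lymphocyte markers 25.2 to 39.4 and 24.4 to 36.3 CPM, and erythroid markers 114 to 320 and 59.6 to 256 CPM.

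**Figure D3:**
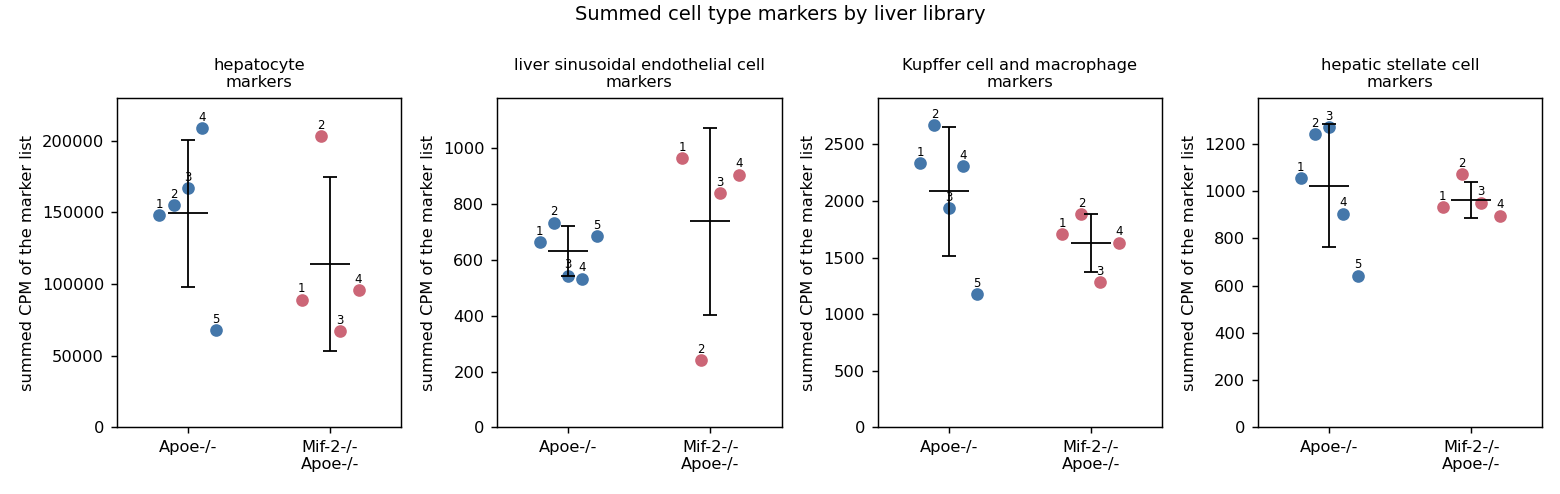
Summed CPM of the hepatocyte, sinusoidal endothelial, Kupffer cell and stellate cell marker lists in each Apoe-/- (blue) and Mif-2-/- Apoe-/- (red) library, numbered by replicate, with the mean ± SD in black and linear axes from 0. All 4 sums overlap between the genotypes, and Mif-2-/- Apoe-/- library 2 is the highest of its group for hepatocyte markers at 202992 CPM and the lowest for endothelial markers at 242 CPM.

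Per kilobase of exon, levels in Apoe-/- liver ran from Trf (6553 CPM per kb) and Hamp (2977) over Id3 (567) to Id1 (86.9), Id2 (77.7) and Atoh8 (63.0). Smad6 (1.88), Bmp6 (1.51), Smad7 (1.29) and Id4 (0.19) followed. Trf and Hamp overlapped in their ranges, as did Id1, Id2 and Atoh8 with their neighbours in this order, and the last 4 genes likewise. Gaps without overlap stood between Hamp and Id3, between Id3 and Id1, and between Atoh8 and Smad6. In Mif-2-/- Apoe-/- liver the mean of Hamp (3137 CPM per kb) was above that of Trf (2543), and Id3 (159) was above Id1 (39.4), Atoh8 (37.4) and Id2 (36.4).

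Over the 9 tested genes 5 were lower and 4 higher in Mif-2-/- Apoe-/- liver. Their median log2 fold change was -0.45, against 0.17 over all genes tested, of which 43.5% were lower. That median is the value of Bmp6 (SE 1.40), for which the data gave no direction. By edgeR's quasi-likelihood test with Benjamini-Hochberg adjustment 1 of the 9 passed 0.05 (Id3), where 0.130% of all genes did. DESeq2, which was run with the most abundant genes kept, gave adjusted p-values to another set of 9 of the 10 genes, Trf included and Id4 not. Of these 2 were under 0.05 (Id3 and Trf), against 5.27% of all genes with such a value. As the genes were selected on this contrast, these counts say nothing about them beyond their own values.

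The profile of Id1 over the 9 libraries was most like those of Hcfc1r1, Acyp1, St3gal1 and Rps7, by the root mean square difference of centred log2(CPM + 0.5). The difference was between 0.128 and 0.219 for these 4 genes, against a median of 0.996 over the 8152 genes compared. Id3 ranked 1096 of these for likeness to Id1, Atoh8 1241 and Id2 2974. The profile of Hamp was most like those of Rpl28, Rpl36, Dcakd and Pet100 (0.190 to 0.235, median 0.940). Id1 ranked 1555 and Id3 4771 for likeness to Hamp. All of these comparisons share the same libraries and depths and are descriptions.

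The pathway around these genes was described by 9 lists, chosen with earlier results of these data known, which together hold 162 genes. Of these, 141 were tested and 0 passed the edgeR test over all genes, with 26 (18.4%) at an unadjusted p under 0.05, 13 of them higher and 13 lower in Mif-2-/- Apoe-/- liver, where 15.5% of all genes tested were at such a p. DESeq2 called 11 of the 120 it gave an adjusted p (9.17%, against 5.27% of all genes), 5 higher and 6 lower. Without overlap between the genotypes were 3 that were higher and 5 that were lower (5.67%, against 4.26% of all genes tested). Under DESeq2 the genes that fell were iron storage, haem and stress genes (Fth1, Ftl1, Hmox1, Slc46a1, Lcn2 and Gdf15). Those that rose were the receptors Acvr1 and Acvr2b, the transcription factor Runx2, the protease Pcsk7 and the mitochondrial iron importer Slc25a37. The plot of fold changes sets the 10 genes beside the 9 lists.

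**Figure D4:**
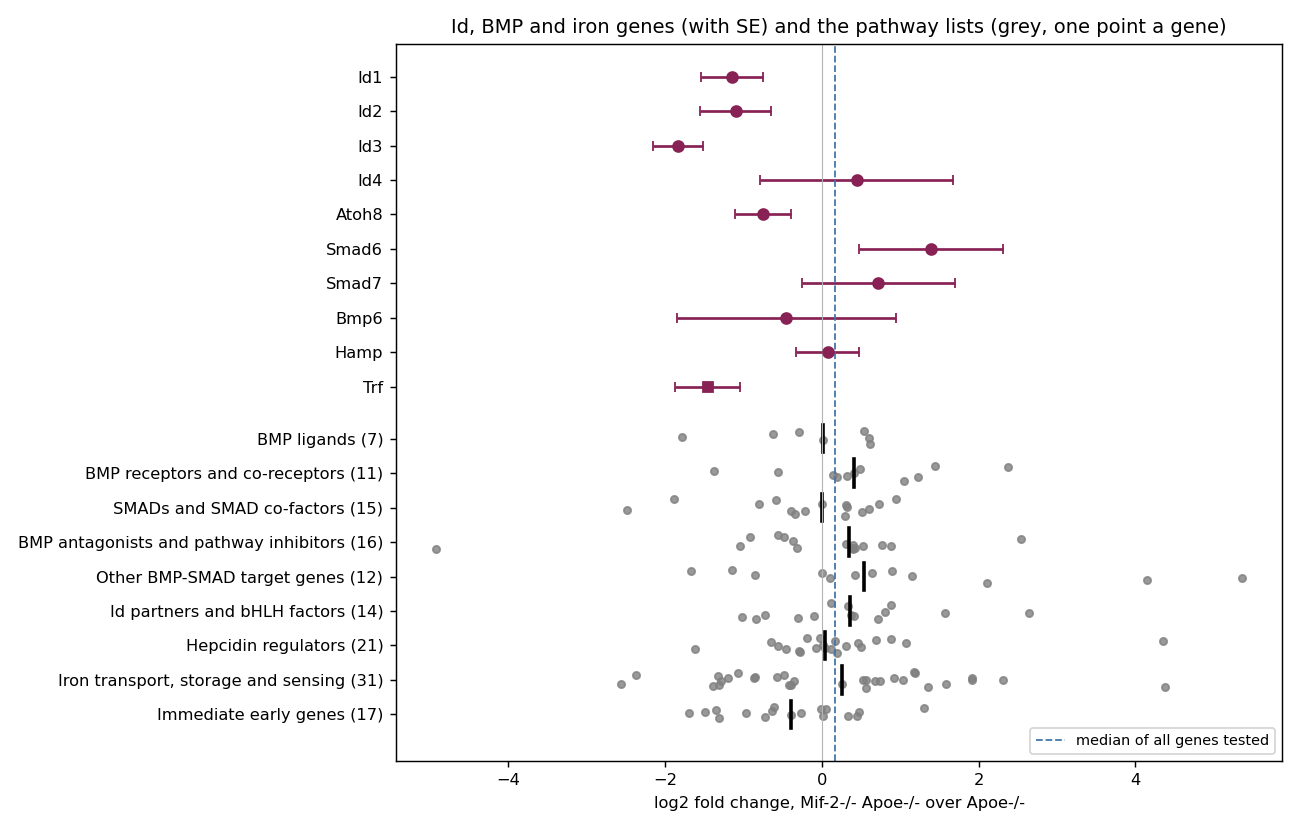
Log2 fold change (Mif-2-/- Apoe-/- over Apoe-/-) of the 10 genes with their SE (purple, the square for Trf from the fit that kept the most abundant genes), of each tested gene of the 9 lists (grey, the number of genes in brackets) and the median of each list (black bar), with the median of all genes tested at 0.17 as a dashed line. Id1, Id2, Id3, Atoh8 and Trf lie left of the dashed line by more than their SE, and the list medians lie between -0.39 and 0.53.

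Of 14 further BMP ligands 7 were tested, with a median log2 fold change of 0.02. None passed edgeR and 1 (14.3%, against 15.5% of all genes tested) was at an unadjusted p under 0.05. Gdf15, a distant family member induced by cell stress, was that gene. It was at 152, 208, 621, 724 and 624 CPM in Apoe-/- libraries 1 to 5 and at 54.9, 229, 155 and 102 CPM in Mif-2-/- Apoe-/- libraries 1 to 4. The groups overlapped, with a log2 fold change of -1.78 (SE 0.52; edgeR adjusted p = 0.160, DESeq2 adjusted p = 0.0387). Bmp1, a procollagen protease and not a signalling BMP, was at 479 ± 161 (SD, n = 5) and 694 ± 177 CPM (SD, n = 4). Bmp4 and Gdf2, which encodes BMP9, had log2 fold changes of 0.62 (SE 0.60) and 0.60 (SE 0.85).

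Of the 12 receptors and co-receptors 11 were tested and the median was 0.41. None passed edgeR, and 3 (27.3%, against 15.5% of all genes tested) were at an unadjusted p under 0.05. DESeq2 called 2 (22.2% of those with an adjusted p, against 5.27% of all genes). Acvr1, a type I receptor known to carry the BMP signal to hepcidin, was at 1.24, 4.29, 1.88, 1.61 and 5.61 CPM in Apoe-/- libraries 1 to 5. Mif-2-/- Apoe-/- libraries 1 to 4 held 18.1, 2.27, 17.1 and 24.0 CPM. Library 2 of the second group lay within the Apoe-/- range and the other three above it (log2 fold change 2.38, SE 0.85, edgeR adjusted p = 0.213, DESeq2 adjusted p = 0.0409). Acvr2b, a type II receptor, had means of 17.8 ± 6.60 (SD, n = 5) and 48.7 ± 18.9 CPM (SD, n = 4). Its adjusted p was 0.177 by edgeR and 0.0283 by DESeq2. Acvrl1, an endothelial type I receptor, had a log2 fold change of -1.37 (SE 0.63), and Eng (0.14, SE 0.35) and Hjv (0.20, SE 0.49) differed by less than their SE.

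All 15 SMADs and SMAD co-factors were tested and none was at an unadjusted p under 0.05 in edgeR, with a median of 0.00. Ski and Smurf1, which restrain SMAD signalling, and Ppm1a, a SMAD phosphatase, led this list by level at means of 34.4 to 53.4 CPM in either genotype. Smad3, Smurf2 and Skil had log2 fold changes of 0.73 (SE 0.67), 0.94 (SE 0.50) and -1.89 (SE 1.66). Of the 19 antagonists and inhibitors 16 were tested (median 0.34). In edgeR 2 (12.5%, against 15.5% of all genes tested) were at an unadjusted p under 0.05. Tmprss6, which cleaves hemojuvelin, had means of 938 ± 211 (SD, n = 5) and 637 ± 136 CPM (SD, n = 4) and a log2 fold change of -0.56 (SE 0.29, edgeR adjusted p = 0.377). Fkbp1a, which binds type I receptors, had a log2 fold change of -0.91 (SE 0.41, edgeR adjusted p = 0.301), and Chrd and Nbl1 had log2 fold changes of 0.31 (SE 0.46) and 0.53 (SE 0.85).

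Of 17 other BMP-SMAD targets 12 were tested, with a median of 0.53, against 0.17 over all genes tested. None passed edgeR, and 2 (16.7%, against 15.5% of all genes tested) were at an unadjusted p under 0.05. DESeq2 called 1 (11.1% of those with an adjusted p, against 5.27% of all genes). That gene, Runx2, is a factor of bone formation. It was at 0 to 2.13 CPM in Apoe-/- libraries and at 1.63, 10.2, 86.2 and 2.74 CPM in Mif-2-/- Apoe-/- libraries 1 to 4 (edgeR adjusted p = 0.137, DESeq2 adjusted p = 0.0028), so 1 library held most of its signal. Tgif1, a SMAD co-repressor, had a log2 fold change of 0.90 (SE 0.47), and Pmepa1 (0.43, SE 0.53), Klf10 (0.10, SE 0.46) and Gata2 (-1.14, SE 0.86) were each within 2 SE of 0.

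Id proteins act through their partners. A mixed list of Id partners and other basic helix-loop-helix factors held 16 genes, and 14 were tested (median 0.36). None passed edgeR, and 3 (21.4%, against 15.5% of all genes tested) were at an unadjusted p under 0.05, all higher. Tcf3, which encodes the E proteins bound by Id proteins, was at 94.6 ± 21.6 (SD, n = 5) and 156 ± 41.7 CPM (SD, n = 4), which gave 0.72 on the log2 scale (SE 0.31, edgeR adjusted p = 0.283). Hes6 was at 126 ± 31.5 (SD, n = 5) and 221 ± 60.6 CPM (SD, n = 4), with a log2 fold change of 0.81 (SE 0.30, edgeR adjusted p = 0.227). Tcf21 (2.64, SE 0.97, edgeR adjusted p = 0.220) was at 68.1 CPM in Mif-2-/- Apoe-/- library 2 and at most 5.72 CPM in the other three. Mlxipl, the carbohydrate-response factor, led the list by level and had a log2 fold change of 0.34 (SE 0.34). Myc (0.89, SE 0.88) and Mxi1 (-1.02, SE 0.81) had wide errors.

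All 21 hepcidin regulators were tested and their median was 0.04. None passed edgeR, and 3 (14.3%, against 15.5% of all genes tested) were at an unadjusted p under 0.05, all higher. DESeq2 called 1 (5.0% of those with an adjusted p, against 5.27% of all genes). Tfr2, the hepatocyte iron sensor, was at 888 ± 71.0 (SD, n = 5) and 913 ± 221 CPM (SD, n = 4), which gave 0.04 on the log2 scale (SE 0.27). Creb3l3, a factor that acts on Hamp in stress, had a log2 fold change of 0.17 (SE 0.34). Pcsk7, a proprotein convertase that can shed transferrin receptor 1, was at 72.4, 43.8, 44.1, 51.8 and 61.2 CPM in Apoe-/- libraries 1 to 5 and at 130, 86.3, 124 and 119 CPM in Mif-2-/- Apoe-/- libraries 1 to 4. Every library of the second group lay above the first, with a log2 fold change of 1.07 (SE 0.31, edgeR adjusted p = 0.154, DESeq2 adjusted p = 0.0032). Cebpb, a factor that binds the Hamp promoter, had a log2 fold change of 0.70 (SE 0.32, edgeR adjusted p = 0.306), and Il22ra1, a receptor subunit, of -1.62 (SE 0.88) without overlap.

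The iron list held 33 genes, of which 31 were tested and Hp and Hpx, the haptoglobin and haemopexin genes, were among the 10 most abundant. Its median was 0.26, and 10 genes (32.3%, against 15.5% of all genes tested) were at an unadjusted p under 0.05 in edgeR, 3 higher and 7 lower. The ferritin chains were lower in every Mif-2-/- Apoe-/- library than in any Apoe-/- library. Ferritin is the iron store of the cell, and its heavy chain gene Fth1 was at 2236, 2576, 2387, 3295 and 1719 CPM in Apoe-/- libraries 1 to 5 and at 826, 1404, 854 and 941 CPM in Mif-2-/- Apoe-/- libraries 1 to 4. The log2 fold change of Fth1 was -1.28 (SE 0.31, edgeR adjusted p = 0.128, DESeq2 adjusted p = 0.0010).

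The light chain gene Ftl1 was at 5980, 6739, 7417, 9885 and 5272 CPM in Apoe-/- libraries 1 to 5 and at 2571, 4046, 3016 and 1775 CPM in Mif-2-/- Apoe-/- libraries 1 to 4. Its log2 fold change was -1.31 (SE 0.34, edgeR adjusted p = 0.138, DESeq2 adjusted p = 0.0043). Within a library the ratio of Ftl1 to Fth1 counts was 2.89 ± 0.23 (SD, n = 5) and 2.85 ± 0.70 (SD, n = 4), so both chains were lower together. Ferritin genes have processed copies in the genome that could take a share of their reads.

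Hmox1, the haem oxygenase that frees iron from haem, was at 107, 152, 61.5, 57.9 and 26.7 CPM in Apoe-/- libraries 1 to 5 and at 16.1, 26.7, 9.57 and 10.97 CPM in Mif-2-/- Apoe-/- libraries 1 to 4. Apoe-/- library 5 and Mif-2-/- Apoe-/- library 2 nearly touched, and the log2 fold change was -2.37 (SE 0.54, edgeR adjusted p = 0.106, DESeq2 adjusted p = 0.0012). Slc46a1, a haem and folate importer, was at 64.6 ± 17.6 (SD, n = 5) and 24.7 ± 6.69 CPM (SD, n = 4) without overlap, a log2 fold change of -1.39 (SE 0.39, edgeR adjusted p = 0.154, DESeq2 adjusted p = 0.0042). Slc39a8, a metal importer, was at 37.3 CPM in Apoe-/- library 4 and at most 6.59 CPM in the other Apoe-/- libraries.

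Some further genes of this list were picked after their values were seen. Lcn2, which binds bacterial iron carriers, had means of 323 ± 118 (SD, n = 5) and 141 ± 44.4 CPM (SD, n = 4), and Slc25a37 of 17.4 ± 8.45 (SD, n = 5) and 44.7 ± 9.73 CPM (SD, n = 4). Tfrc, the receptor for transferrin, was at 3.72 ± 1.03 (SD, n = 5) and 7.62 ± 6.74 CPM (SD, n = 4). Slc40a1, which encodes ferroportin, the target of hepcidin, was at 11.9 ± 6.17 (SD, n = 5) and 17.5 ± 12.8 CPM (SD, n = 4). The log2 fold changes of Tfrc and Slc40a1 were 1.04 (SE 0.87) and 0.57 (SE 0.65), and neither was larger than the spread between libraries.

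**Figure D5:**
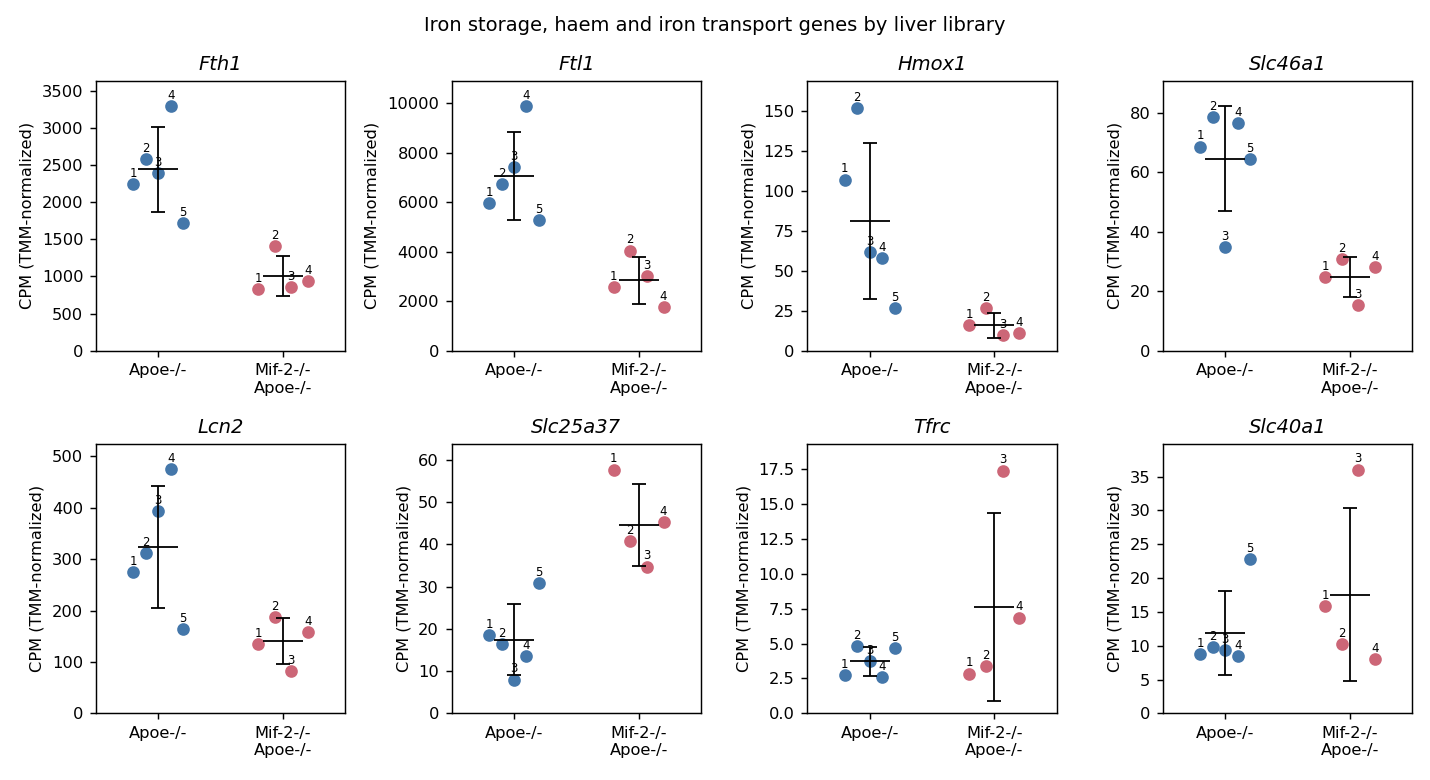
CPM (TMM-normalized, linear axes from 0) of 8 genes of iron storage, haem and iron transport in each Apoe-/- (blue) and Mif-2-/- Apoe-/- (red) library, numbered by replicate, with the mean ± SD in black. For Fth1, Ftl1, Hmox1 and Slc46a1 every red point lies below every blue point, for Slc25a37 every red point lies above, and Lcn2, Tfrc and Slc40a1 overlap.

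Id genes are also fast-responding genes, and 18 immediate early genes were set beside them, 17 of which were tested. Their median was -0.39, with 11 lower and 6 higher. None passed edgeR or DESeq2. In edgeR 2 (11.8%, against 15.5% of all genes tested) were at an unadjusted p under 0.05, both lower (Atf3 and Btg2). The log2 fold changes of these 2 genes were -1.50 (SE 0.66, edgeR adjusted p = 0.295) and -1.35 (SE 0.60, edgeR adjusted p = 0.298). The most abundant, Ier2, Dusp1 and Junb, had log2 fold changes of -0.26 (SE 0.28), -0.64 (SE 0.40) and -0.01 (SE 0.41), and Ier3 of -1.31 (SE 0.78). The part of tissue handling in the levels of the Id genes was not tested.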

How the data were processed

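Nanogram amounts of liver RNA from fixed, frozen sections were amplified with the Smart-seq2 protocol and sequenced in 9 libraries. A legend of the study names 4 mice per group, while the table holds 5 Apoe-/- libraries. All were used, and n counts libraries. Per the labels, the authors used FastQC, cutadapt and HISAT2, and their processing notes name mm10. The versions and the counting tool are not given in the sources used here. The authors deposited raw counts, whole numbers for each Entrez gene identifier, with no normalization applied. Of that table, 1 row that held no gene (a repeated header) was left out, no sample column was left unmapped, and 25275 of 27179 identifiers were given symbols through RefSeq.

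A gene entered the fit when 3 or more libraries of one genotype held at least 1 count of it and it was not among the 10 genes of highest mean CPM. The 16860 genes left were tested with edgeR 4.0.16 (TMM, quasi-likelihood test, Benjamini-Hochberg adjustment, threshold 0.05) under R 4.3.3, with genotype as the only term. The SE of a log2 fold change was taken from it and the square root of its F statistic. The standard deviations are over libraries. DESeq2 1.42.0, the tool of the study, was an alternative. Others were RLE and TMMwsp scaling, no filter or edgeR's own filter, the most abundant genes kept, a replicate block and each library left out. The script was tested on simulated data. A count of 3 was taken as the floor, and it covers counting error only, as reads without molecular identifiers are not independent molecules. Whether the counting used strand is not given in the sources used here.

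The 10 genes and all lists were chosen with earlier results of these data known. The genes named from the lists are any called by edgeR, then in each list the 3 tested genes with the highest mean CPM and the 3 with the largest absolute log2 fold change at a mean of at least 5 CPM. For Id1 and Hamp the 4 genes with the most alike profile are named, among genes of at least 10 CPM. Positions are from GENCODE M21 (GRCm38) and promoters from RefSeq (GRCm38.p6). Figures were drawn with matplotlib 3.10.9 under Python 3.11.15 (numpy 2.4.6, pandas 2.3.3, scipy 1.17.1).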

Additional observations from a re-analysis of the deposited data

Results flagged for a closer look

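Within each genotype, the highest or lowest library of the 10 genes and of the genes named from the lists was compared with the nearest other library by Dixon's test at 95%. Of 116 such groups, 18 held a library far from the others. The rate of about 1 in 20 expected by chance holds for normal values. CPM of genes near 0 need not follow it, so the 2 cannot be compared. Among the 10 genes these were Bmp6 in Apoe-/- library 5 (26.9 CPM, the others at most 1.01), Smad7 in Mif-2-/- Apoe-/- library 2 (29.0 CPM, the others at most 5.29), and Id4 in Apoe-/- library 1 (2.33 CPM, the others at most 0.47) and in Mif-2-/- Apoe-/- library 4 (2.29 CPM, the others at most 0.61).

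In Apoe-/- library 5, Eng was low at 99.5 CPM (the others 294 to 351), and Tgif1 (63.5 CPM), Skil (33.5 CPM) and Runx2 (2.13 CPM) were high. Mif-2-/- Apoe-/- library 3 was high for Runx2 (86.2 CPM, the others at most 10.2) and Tgif1 (79.4 CPM) and low for Acvrl1 (4.79 CPM). Tcf21 was high in Mif-2-/- Apoe-/- library 2 (68.1 CPM), Myc (38.2 CPM) and Skil (6.71 CPM) in library 1, and Slc39a8 (4.80 CPM) in library 4 of that genotype. In the Apoe-/- group Pmepa1 was high in library 2 (37.8 CPM), and Hes6 (181 CPM) and Slc39a8 (37.3 CPM) in library 4. Id1, Id2, Id3, Atoh8, Smad6, Hamp and Trf held no such library in either genotype.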

How the results depend on the processing

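Over all genes tested, 22 were called by edgeR, 12 higher and 10 lower in Mif-2-/- Apoe-/- liver, and between 25 and 32 with other scaling, other filters or the most abundant genes kept. DESeq2 called 739 of 14030 genes, all 22 among them. Left out one at a time, the libraries gave 9 to 262 calls, 262 without Mif-2-/- Apoe-/- library 2 and 126 without Apoe-/- library 5. Of the listed pathway genes, 0 were called in the main fit, 11 by DESeq2, and 0 to 4 with 1 library left out, 3 of them without Apoe-/- library 5 and 4 without Mif-2-/- Apoe-/- library 2. Without both libraries that stood apart, an alternative chosen after seeing the data, 39 genes and 0 pathway genes were called. The cause of these moves was not tested. The labels do not say whether equal replicate numbers mark paired samples. The correlations of their deviations were 0.13, 0.0098, 0.063 and -0.014, and without differently numbered pairs beside them they cannot decide this. With a replicate block 560 genes and 6 pathway genes were called. Apoe-/- library 5 has no equal number in the other genotype, so with the block it does not inform the difference between genotypes. The median log2 fold change of the 10 genes, with Trf left out, was between -0.79 and -0.46 in the other settings. The lower end came from edgeR's own filter, which left out Id4 and Bmp6. This median was between -0.81 and -0.07 with 1 library left out, and 0.22 without both libraries that stood apart. Id1, Id2, Id3, Atoh8, Smad6 and Trf kept their direction in every setting run. Id4 turned in 1 setting, Smad7 in 2, Bmp6 in 3 and Hamp in 8, and for Bmp6 the log2 fold change was 2.41 with the block and 2.95 without both libraries that stood apart. Of the 47 genes named from the lists, 14 changed sign in at least 1 setting (50 values), none of them called, and 20 values passed 0.05 where the main value had not. The counts of Id4, Bmp6, Smad6 and Smad7 were under 200 in every library, and the part of depth in their spread was not tested.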
